A study of Homo sapiens with 8 samples.

Results

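The histone deacetylase family was examined in MOLM-13 cells, a human acute myeloid leukemia line, after knockdown of the splicing regulator PTBP1. The family was taken as the 10 genes HDAC1 to HDAC10, of 62639 genes with a listed transcript. A transcript belonged to the family if its identifier, without the version, is listed under 1 of these genes in the GENCODE 44 annotation. The count table listed 306 such transcripts, of which 80 had a count in any library. The 4 shPTBP1 libraries came from cells with a doxycycline-inducible short hairpin RNA against PTBP1. The 4 shSCR libraries came from cells with a scrambled hairpin (shControl in the labels). Both groups had received doxycycline for 9 days, and both constructs also carry mCherry and a truncated nerve growth factor receptor as reporters. With 1 hairpin against PTBP1 and 1 scrambled hairpin, an effect of PTBP1 loss and any other difference between the transduced cells cannot be told apart.

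Histone deacetylases remove acetyl groups from lysines of histones and other proteins, and are best known for closing chromatin and repressing transcription. The class I enzymes HDAC1, HDAC2, HDAC3 and HDAC8 carry most of the catalytic activity on histones, and HDAC1, HDAC2 and HDAC3 act inside multiprotein corepressor complexes. The class IIa enzymes HDAC4, HDAC5, HDAC7 and HDAC9 have weak catalytic activity of their own, bind MEF2 transcription factors and move between nucleus and cytoplasm when bound by 14-3-3 proteins. The class IIb enzymes HDAC6 and HDAC10 lie largely in the cytoplasm, where HDAC6 deacetylates tubulin and HDAC10 deacetylates polyamines. HDAC1 bears on the study's question because its authors asked whether HDAC1 is needed for PTBP1 to bind the transcription factor RUNX1. PTBP1 itself binds pyrimidine-rich RNA, often ahead of an exon, and can keep that exon out of the mature transcript.

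For HDAC2, HDAC7, HDAC8 and HDAC9, 1 exon each that some counted transcripts carry and others skip is shown here, because its inclusion was compared between the groups. Other exons of the family also differ between counted transcripts and were not compared. The sequences are from the GRCh38 genome on the transcribed strand, with 100 intronic bases before the exon in lower case and the exon in capitals. The HDAC2 exon of 28 bases lies in the 5′ untranslated region of HDAC2-201 (chr6:113962367-113962494, minus strand, for the stretch shown). The exons of HDAC7 (111 bases, chr12:47795906-47796116, minus strand), HDAC8 (78 bases, chrX:72330691-72330868, minus strand) and HDAC9 (132 bases, chr7:18629250-18629481, plus strand) are coding.
HDAC2: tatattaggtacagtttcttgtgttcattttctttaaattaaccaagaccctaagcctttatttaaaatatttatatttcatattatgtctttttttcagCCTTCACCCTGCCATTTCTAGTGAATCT
HDAC7: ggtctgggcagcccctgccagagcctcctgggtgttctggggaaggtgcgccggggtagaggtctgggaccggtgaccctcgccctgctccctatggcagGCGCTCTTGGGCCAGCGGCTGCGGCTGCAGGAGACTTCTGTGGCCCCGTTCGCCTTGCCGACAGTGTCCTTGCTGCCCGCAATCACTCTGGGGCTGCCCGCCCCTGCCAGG
HDAC8: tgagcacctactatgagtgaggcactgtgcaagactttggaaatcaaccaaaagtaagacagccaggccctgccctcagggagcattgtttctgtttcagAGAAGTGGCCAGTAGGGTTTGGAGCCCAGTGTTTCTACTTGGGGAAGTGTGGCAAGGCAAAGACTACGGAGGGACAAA
HDAC9: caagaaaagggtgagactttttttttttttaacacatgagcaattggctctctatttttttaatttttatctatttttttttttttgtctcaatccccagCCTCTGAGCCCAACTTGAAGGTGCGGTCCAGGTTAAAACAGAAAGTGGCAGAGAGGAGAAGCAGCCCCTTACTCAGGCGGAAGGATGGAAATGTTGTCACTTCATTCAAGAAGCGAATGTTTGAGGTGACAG
The intronic stretch was 63% pyrimidines for HDAC2, 50% for HDAC7, 47% for HDAC8 and 65% for HDAC9, against a median of 55% over the 188828 internal exons of protein-coding transcripts that were scanned in the same way. The letters CTCTCT and TCTT, which do not contain one another, were searched in these 100 bases on the transcribed strand alone. CTCTCT occurred 1 time ahead of the HDAC9 exon and ahead of none of the other 3, and 8.95% of the scanned stretches held it. TCTT occurred 3 times ahead of the HDAC2 exon and ahead of none of the other 3, and 60.7% of the scanned stretches held it. These matches describe the letters and not binding.

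The libraries held between 1528449 and 1613342 counts, and between 12322 and 12589 genes were detected in each. PTBP1 had between 6.25 and 14.5 normalized counts per 1000000 counts (CPM) in the shPTBP1 libraries and between 39.4 and 56.6 in the shSCR libraries, a log2 fold change of -2.26 (SE 0.22, edgeR quasi-likelihood test, Benjamini-Hochberg adjusted p = 7.18e-05), so that the labels and the targeted gene went the same way. The line's labelled type was checked against 12 myeloid genes, whose summed level was between 1269 and 1463 CPM after shPTBP1 and between 1134 and 1303 CPM in shSCR. Of these, 8 were abundant enough to test and 1 was called, the macrophage-associated CD68, which was higher after shPTBP1 (adjusted p = 0.0194), while CD34 and SPI1 had at most 1 count in a library. Whether so low a count of SPI1 reflects the cells or the counting could not be settled from the table. Of 8 T cell genes, 7 were at 0 counts in each library, and CD4 was at 214 to 312 CPM, lower after shPTBP1 (adjusted p = 0.000597). The part of these marker changes in the values below was not tested. Fewer cells of a kind and less RNA per cell cannot be told apart in these bulk libraries.

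None of the family genes passed the test for a change after knockdown of PTBP1. The gene counts of 8 members passed the filter on low counts, and 0 of them were called, where 5.54% of all 7597 genes tested were called, 3.19% lower and 2.36% higher. No member reached an unadjusted p under 0.05. DESeq2 also called 0, but it gave an adjusted p for HDAC1, HDAC2, HDAC3 and HDAC8 alone, so the other members could not be called there. In none of the 10 genes did the groups of libraries separate, whereas they did so in 12.7% of the genes tested. The tested members had a median log2 fold change of -0.27 and 7 of the 8 values were negative, from -0.53 for HDAC10 to 0.01 for HDAC2, while the median over all genes tested was -0.00. The smallest adjusted p in the family was 0.353, for HDAC8. HDAC4 and HDAC7 were too low to test.

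**Figure D1:**
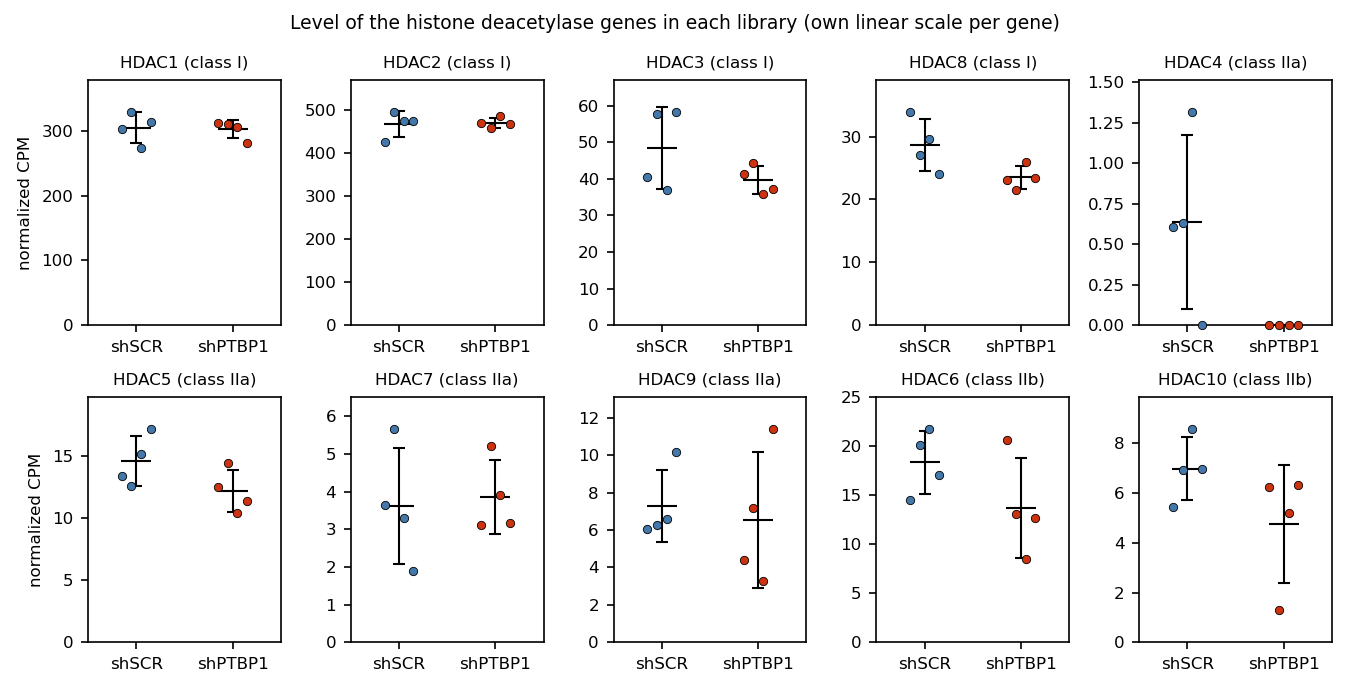
Normalized CPM of each of the 10 genes in each library, on a linear axis from 0 that differs between genes; points are libraries, the bar is the mean and the whiskers the SD (n = 4 per group). The shPTBP1 and shSCR points overlap in each panel, and HDAC4 rests on 4 counts in all.

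HDAC1 and HDAC2, the paired catalytic subunits of the SIN3, NuRD and CoREST complexes, were the most abundant members. HDAC1, on chromosome 1 (32292083 to 32333635, plus strand), had 312.6, 311.4, 305.8 and 282.0 normalized CPM in the shPTBP1 libraries and 303.5, 329.4, 273.4 and 314.4 in the shSCR libraries. The shPTBP1 values lay inside the shSCR range. The means were 303 ± 14.3 and 305 ± 23.7 CPM (SD, n = 4), a log2 fold change of -0.01 (SE 0.07, 95% interval -0.17 to 0.14, edgeR adjusted p = 0.955). A fall to less than 89.2% or a rise to more than 110.3% of the shSCR level was therefore outside the interval.

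HDAC2, on chromosome 6 (113933028 to 114011308, minus strand), had 468.9, 458.3, 485.4 and 466.6 normalized CPM after shPTBP1 and 425.9, 495.4, 474.4 and 473.4 in shSCR. Here too the shPTBP1 values lay within the shSCR range, with means of 469.8 ± 11.4 and 467.3 ± 29.4 CPM (SD, n = 4). The log2 fold change was 0.01 (SE 0.06, 95% interval -0.13 to 0.14, edgeR adjusted p = 0.971). The ratio of HDAC2 to HDAC1 counts was 1.55 ± 0.0835 after shPTBP1 and 1.54 ± 0.140 in shSCR (SD, n = 4), so that the balance between these subunits differed by less than the spread between replicates.

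HDAC3, the catalytic subunit of the NCoR and SMRT complexes, on chromosome 5, had 41.3, 44.4, 35.8 and 37.3 normalized CPM after shPTBP1 and 40.6, 57.8, 36.9 and 58.3 in shSCR. The higher shSCR mean came from replicates 2 and 4, and the other 2 shSCR libraries lay among the shPTBP1 libraries. The means were 39.7 ± 3.90 and 48.4 ± 11.3 CPM (SD, n = 4), a log2 fold change of -0.29 with a 95% interval of -0.63 to 0.06 (edgeR adjusted p = 0.357).

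HDAC8, a class I enzyme that acts outside the large complexes and deacetylates the cohesin subunit SMC3, lies on the X chromosome. It had 23.1, 21.5, 26.0 and 23.4 normalized CPM after shPTBP1 and 33.9, 27.0, 29.7 and 24.1 in shSCR. Only shSCR replicate 4 lay below the highest shPTBP1 library. The means were 23.5 ± 1.86 and 28.7 ± 4.18 CPM (SD, n = 4), with a log2 fold change of -0.29 (95% interval -0.63 to 0.05, edgeR adjusted p = 0.353). An exact two-sided permutation test over the libraries gave p = 0.0571, where 0.0286 is the smallest p that 4 against 4 libraries allow. This p is unadjusted and the lowest among the 10 genes, each of which was compared in this way.

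The class IIa genes were low in each library. HDAC5, which represses MEF2 targets, had 12.5, 14.4, 10.4 and 11.4 normalized CPM after shPTBP1 and 13.3, 12.6, 15.2 and 17.1 in shSCR. The groups overlapped, with a log2 fold change of -0.26 (95% interval -0.70 to 0.19, edgeR adjusted p = 0.567). HDAC9 rested on 7, 11, 5 and 18 counts after shPTBP1 and on 10, 10, 10 and 16 in shSCR, and in both groups replicate 4 held the most. Its log2 fold change was -0.15, with an interval from -0.99 to 0.69 that allows a change of either sign (edgeR adjusted p = 0.890). HDAC7, which is known from lymphoid development, had 5, 8, 6 and 5 counts after shPTBP1 and 6, 9, 5 and 3 in shSCR. The ratio of its pooled counts per depth was 1.03, with a 95% counting interval of 0.557 to 1.91. HDAC4 had 0 counts in the 4 shPTBP1 libraries and 1, 1, 2 and 0 in the shSCR libraries. A count of 0 over the shPTBP1 libraries together allows up to 0.473 CPM, taking 3 counts as the limit. The shSCR mean was 0.638 ± 0.539 normalized CPM (SD, n = 4), and the groups overlapped (exact two-sided permutation p = 0.143). These few counts do not settle whether HDAC4 differed. The HDAC7 interval and the HDAC4 limit cover counting error only.

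The class IIb gene HDAC6, on the X chromosome, had 20.6, 13.1, 8.46 and 12.6 normalized CPM after shPTBP1 and 14.5, 20.1, 21.7 and 17.1 in shSCR. Replicate 1 of shPTBP1 lay among the shSCR libraries and the other 3 below them. The log2 fold change was -0.42 (95% interval -0.96 to 0.13, edgeR adjusted p = 0.405). It was -0.68 without shPTBP1 replicate 1 and -0.24 without shPTBP1 replicate 3, and HDAC6 was not called in either fit. HDAC10 rested on 10, 2, 8 and 10 counts after shPTBP1 and on 9, 11, 13 and 11 in shSCR. Its log2 fold change of -0.53 had the widest interval of the family, -1.39 to 0.33 (edgeR adjusted p = 0.519). Without shPTBP1 replicate 2, the library with 2 counts, it was -0.23.

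**Figure D2:**
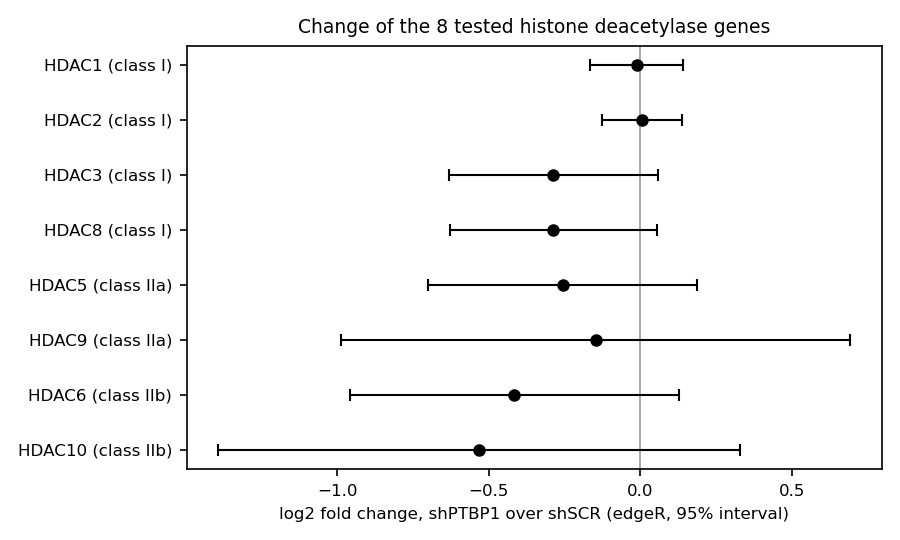
Log2 fold change of shPTBP1 over shSCR for the 8 tested genes (edgeR, dots) with 95% intervals (bars). Each interval crosses 0; those of HDAC1 and HDAC2 stay between -0.17 and 0.14, and that of HDAC10 runs from -1.39 to 0.33.

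Summed by class, the 4 class I genes took between 93.5% and 96.5% of the family's counts in each library, and HDAC1 and HDAC2 alone between 85.3% and 89.5%. Class I summed to 836 ± 19.2 normalized CPM after shPTBP1 and 850 ± 49.6 in shSCR (SD, n = 4). The class IIa sums were 22.6 ± 4.49 and 26.1 ± 2.34 CPM, and the class IIb sums 18.5 ± 6.08 and 25.4 ± 4.39 CPM. The whole family reached 877 ± 16.6 CPM after shPTBP1 and 901 ± 51.6 CPM in shSCR. 

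Levels were also compared between genes per kilobase of the transcripts counted, over the 8 libraries. Whether these counts depend on transcript length was not tested, so the order below holds for this scale only. HDAC1 led with a mean of 143 CPM per kilobase (range 129 to 155), followed by HDAC2 with 130.1 (118 to 138), and the ranges of the pair overlapped. HDAC3 with 23.0 and HDAC8 with 15.1 CPM per kilobase overlapped each other and lay below HDAC2 and above all others in each library. HDAC6 (3.92), HDAC5 (3.64), HDAC10 (2.29), HDAC9 (1.89) and HDAC7 (0.903) followed, each overlapping the next in the order. HDAC4, at 0.0618 CPM per kilobase (range 0 to 0.255), lay below HDAC7 without overlap. HDAC2 changes place with the scale, since it was above HDAC1 in CPM but not per kilobase.

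The transcripts counted for each gene were then grouped by what they code for. The reference here is the MANE Select transcript, the 1 transcript per gene that Ensembl and RefSeq share. HDAC1 was almost wholly HDAC1-201, its MANE transcript of 14 exons and 482 codons, at 99.4 ± 0.358% of the gene's counts after shPTBP1 and 99.4 ± 0.498% in shSCR (SD, n = 4). The rest was HDAC1-206, a transcript with a retained intron, with 10 and 12 counts in the groups, and 1 count of HDAC1-210. HDAC3 was likewise 96.5 ± 2.56% and 96.8 ± 1.51% HDAC3-201, and the intron-retaining HDAC3-205 and HDAC3-211 had 11 and 6 counts in all. HDAC5 was counted on HDAC5-204, which shares the coding sequence of the MANE transcript, at 98.9 ± 2.27% and 96.9 ± 2.13%, and HDAC5-201 and HDAC5-211 had 2 counts each. HDAC10-201 held 27 of 30 counts after shPTBP1 and 42 of 44 in shSCR, HDAC10-222 had 3 in all and HDAC10-221 had 1.

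**Figure D3:**
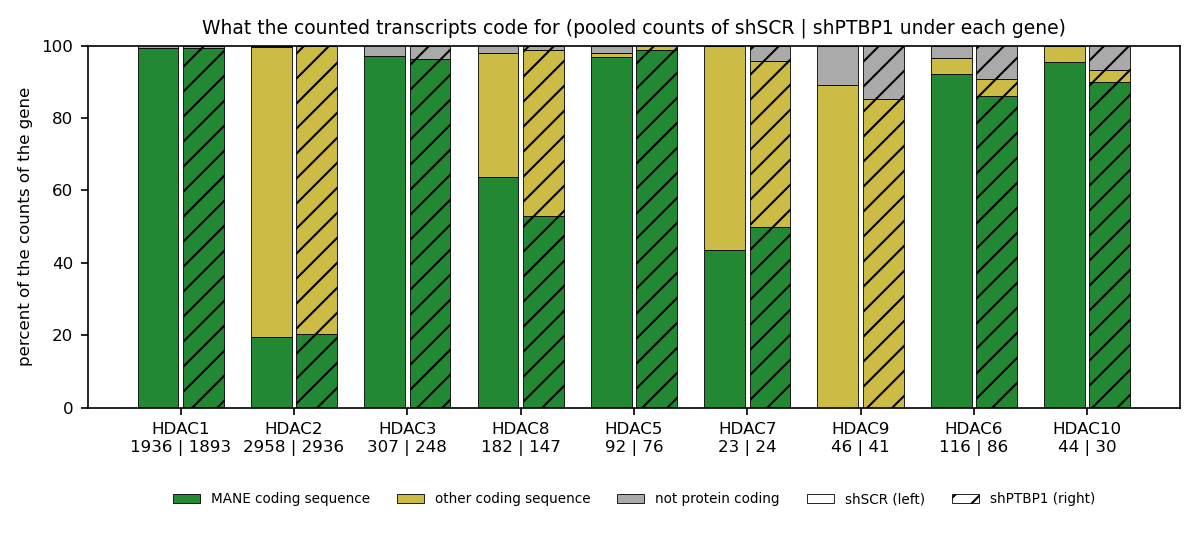
Percent of each gene's pooled counts on transcripts with the MANE coding sequence, with another coding sequence, or not annotated as protein coding; left bars are shSCR, hatched right bars shPTBP1, the pooled counts stand under each gene and HDAC4 is left out. HDAC1, HDAC3, HDAC5, HDAC6 and HDAC10 were mostly on the MANE coding sequence and HDAC2 and HDAC9 mostly or wholly on others.

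HDAC2 was split between a pair of coding transcripts. HDAC2-201, with 458 codons and the 28-base exon shown above, had 585, 528, 613 and 593 counts after shPTBP1 and 552, 632, 562 and 607 in shSCR. HDAC2-205, the MANE transcript with 488 codons, had 159, 169, 128 and 140 counts after shPTBP1 and 140, 153, 150 and 131 in shSCR. These were 78.9 ± 3.01% and 79.5 ± 1.49% of the gene for HDAC2-201, and 20.4 ± 2.98% and 19.4 ± 1.39% for HDAC2-205 (shPTBP1 and shSCR, SD, n = 4). HDAC2-206, which shares the coding sequence of HDAC2-201 but starts with other exons, had 15 counts in each group. Neither HDAC2-201 nor HDAC2-205 was called for usage, where 1.12% of the 5464 transcripts tested were (diffSpliceDGE of edgeR, adjusted p = 1.00 for both). Of the family, only these 2 transcripts could be tested for usage, and 6 of the 80 with a count were tested for level. The HDAC2 pair also differs at the 3′ end, 7690 bases apart, with a last exon of 371 bases in HDAC2-201 and of 8061 bases in HDAC2-205. A count therefore does not tell which of these features assigned the read.

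A small fraction of HDAC2 did separate the groups. Transcripts of HDAC2 not annotated as protein coding had 0, 1, 1 and 2 counts after shPTBP1 and 5, 3, 3 and 5 in shSCR. This class was not split by whether a coding sequence is annotated. The intron-retaining HDAC2-211 had 3 counts after shPTBP1 and 7 in shSCR, and HDAC2-215 had 1 and 4. For each of these transcripts alone the groups overlapped. The counts on the other transcripts of the class were all in shSCR. For the class as a whole, each shPTBP1 library lay below each shSCR library, with shares of 0.137 ± 0.111% and 0.544 ± 0.170% of the gene (SD, n = 4). The exact two-sided permutation p was 0.0286, the smallest these libraries allow, unadjusted and among 9 genes compared in this way. The same share was not compared over all genes, so how often it separates the groups elsewhere is not known. The value rests on 20 counts of 5894, and the lncRNA HDAC2-AS2 on the other strand of the locus had 8.

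HDAC8 was the most divided member, with counts on 15 distinct coding sequences. The MANE transcript HDAC8-207 (11 exons, 377 codons) had 30, 13, 19 and 16 counts after shPTBP1 and 32, 32, 26 and 26 in shSCR. Replicate 1 of shPTBP1 lay among the shSCR libraries, and the other 3 lay below them all. The level of HDAC8-207 had a log2 fold change of -0.56 (95% interval -1.06 to -0.06) and an unadjusted p of 0.0323, which adjustment over 10207 transcripts raised to 0.206 (edgeR). At this level 5.45% of the transcripts tested were called. Without shPTBP1 replicate 1 the log2 fold change was -0.83 and HDAC8-207 was called (edgeR adjusted p = 0.0399), and over the other alternatives the adjusted p was between 0.207 and 0.557.

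As a share of the gene, HDAC8-207 took 52.8 ± 19.1% after shPTBP1 and 64.4 ± 8.43% in shSCR (SD, n = 4, exact permutation p = 0.286). Next came HDAC8-214, with 256 codons and an end 143900 bases before that of HDAC8-207, at 23 and 21 counts. HDAC8-202, HDAC8-225 and HDAC8-260 had 21, 15 and 13 counts in all. Transcripts that reach the last exon of HDAC8-207 held 64.9 ± 15.8% of the gene's counts after shPTBP1 and 74.6 ± 6.78% in shSCR, and the groups overlapped (exact permutation p = 0.314). The difference of -9.70 points was -16.9 points without shPTBP1 replicate 1 and -4.23 points without shPTBP1 replicate 2. Those that end before it had 51 and 47 counts.

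**Figure D4:**
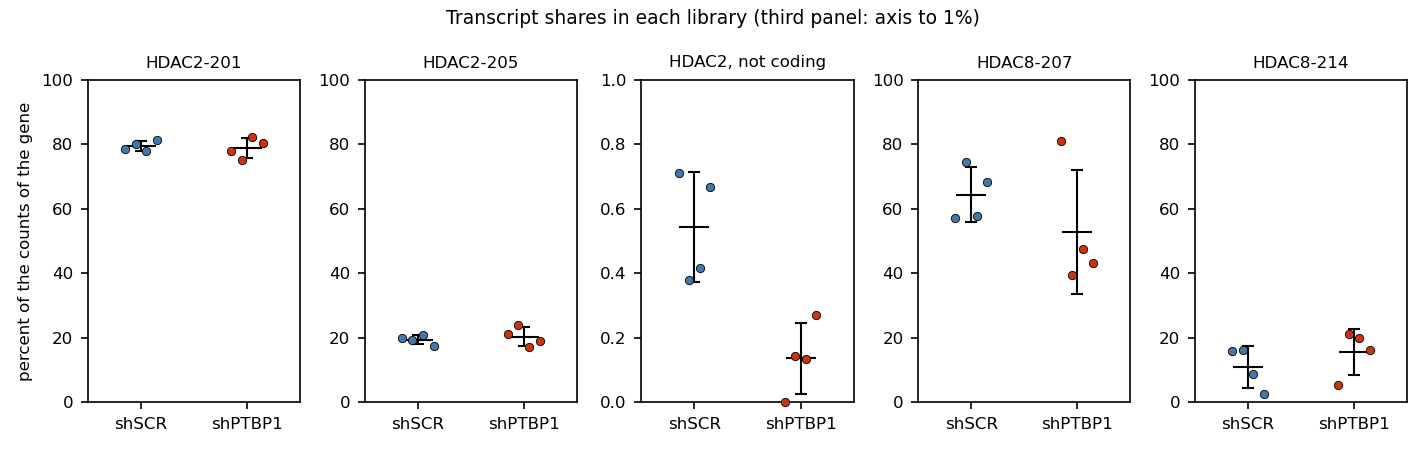
Percent of the gene's counts per library for 2 transcripts of HDAC2, HDAC2 transcripts not annotated as protein coding (axis to 1%) and 2 transcripts of HDAC8. Points are libraries, the bar is the mean and the whiskers the SD (n = 4). The third panel is the one in which the groups do not overlap, and shPTBP1 replicate 1 is the high point of HDAC8-207.

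HDAC9 in these cells was counted almost wholly on short forms. HDAC9-202, with 590 codons, had 24 counts after shPTBP1 and 30 in shSCR, HDAC9-229 had 3 and 7, HDAC9-205, without an annotated coding sequence, had 6 and 4, and the MANE transcript HDAC9-232 had none. Of the 87 HDAC9 counts, 78.2% were on transcripts that end where HDAC9-202 ends or up to 50 bases before, and 3 (3.45%, exact 95% interval 0.717% to 9.75%) were on transcripts that end past it. HDAC9-202 lacks 14 exons of the longer HDAC9-204, among them those for the deacetylase domain. It is of the kind known as MITR, which keeps the part that binds MEF2. After shPTBP1 and in shSCR, 30 and 38 counts were at the end of HDAC9-202 and 0 and 3 past it.

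HDAC7 was divided between HDAC7-202, with 24 counts, and the MANE transcript HDAC7-201, with 22, which carries the 111-base exon in addition, and HDAC7-219 had 1 count. HDAC6 was spread over 22 transcripts with a count, of which 8 share 1 coding sequence of 1215 codons that took 89.6% of the counts. Its leading transcripts HDAC6-236, HDAC6-233 and HDAC6-201, with 66, 58 and 40 counts, differ at the ends and not in the protein. Transcripts of HDAC6 not annotated as protein coding had 8 of 86 counts after shPTBP1 and 4 of 116 in shSCR (exact permutation p = 0.171 for the shares). The 4 counts of HDAC4 fell on HDAC4-215, HDAC4-204 and HDAC4-210.

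Inclusion of the exons shown above was counted from the transcripts that carry or skip each of them. The HDAC2 exon was in 79.0 ± 3.05% of these counts after shPTBP1 and in 79.7 ± 1.52% in shSCR (SD, n = 4, exact permutation p = 0.714). The counts with this exon were those of HDAC2-201, so the value largely restates that transcript's share and is not a separate result. A count does not tell whether this exon or the 3′ end assigned the read, so inclusion of the exon itself was not measured. The HDAC9 exon was in 24 of 31 counts after shPTBP1 (77.4%) and 32 of 41 in shSCR (78.0%, exact permutation p = 0.886). The HDAC8 exon was in 7 of 94 and 8 of 135 counts (7.45% and 5.93%, exact permutation p = 0.686). The HDAC7 exon was in 12 of 24 counts after shPTBP1 (exact 95% interval 29.1% to 70.9%) and 10 of 23 in shSCR (43.5%, exact 95% interval 23.2% to 65.5%). For HDAC7 the mean over libraries had the other sign, 47.1 ± 18.9% and 49.7 ± 19.6% (SD, n = 4, exact permutation p = 0.83). For none of the 4 exons did the groups separate, and the sign of the difference turned for each of them in at least 1 of the 8 fits that leave out a library. The exons were chosen after the counts of the transcripts were seen.

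Some loci share their place with another gene, and whether the counting used strand is not given in the sources used here. HDAC5 overlaps G6PC3 and HDAC7 overlaps SLC48A1 on the opposite strand, with 2662 and 449 counts for these neighbours. HDAC10 overlaps MAPK12, with 50 counts, on the same strand. HDAC4 had 4 counts against 24 of HDAC4-AS1, so its few counts are uncertain. The pseudogenes HDAC1P1 and HDAC1P2 had none.

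The partners of the family were examined as 7 lists of other deacetylases and of the complexes that hold these enzymes, 69 genes in all. Of these, 44 were tested, 3 were called lower and 0 higher after shPTBP1 (6.82% called, against 5.54% of all genes), with a median log2 fold change of -0.08 against -0.00 for all genes. NCOR1, the scaffold that activates HDAC3, had 57.5 to 78.8 normalized CPM after shPTBP1 and 87.0 to 104 in shSCR, without overlap. Its means were 69.5 ± 10.9 and 97.3 ± 7.5 CPM (SD, n = 4), a log2 fold change of -0.48 (SE 0.11, adjusted p = 0.0262 by edgeR). SUDS3, a subunit of the SIN3 complex, was lower at 8.78 ± 2.44 against 16.9 ± 2.17 CPM (SD, n = 4), a log2 fold change of -0.94 (SE 0.24, adjusted p = 0.0382 by edgeR). YWHAE, the 14-3-3 protein epsilon, was lower at 141 ± 13.7 against 181 ± 13.2 CPM (SD, n = 4), a log2 fold change of -0.35 (SE 0.09, adjusted p = 0.0308 by edgeR). The groups did not overlap for SUDS3 and YWHAE either. These calls were sensitive to single libraries. With each of the 8 left out in turn, NCOR1 was called in 3 fits (without shPTBP1 replicate 1, shPTBP1 replicate 3 or shSCR replicate 3), YWHAE in 2 (without shPTBP1 replicate 4 or shSCR replicate 2) and SUDS3 in 0. The adjusted p in these fits rose to at most 0.0867 for NCOR1, 0.0950 for YWHAE and 0.107 for SUDS3 (edgeR).

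The other listed genes did not pass the test. Of the NuRD list of 13 genes, CHD5 and MTA1 had 0 counts in each library. Whether this reflects the cells or the counting could not be settled. Of this list 8 genes were tested, with a median log2 fold change of -0.05. Its most abundant members were the histone chaperones RBBP7, at 253 ± 20.9 and 238 ± 10.1 CPM, and RBBP4, at 63.9 ± 5.05 and 64.7 ± 4.19 CPM (shPTBP1 and shSCR, SD, n = 4). Of the SIN3 list of 16, 11 were tested (median -0.06), and of the CoREST list of 7, 6 (median -0.09). RCOR1, the CoREST scaffold, was at 39.1 ± 6.84 and 38.4 ± 5.94 CPM (SD, n = 4). Of the mitotic deacetylase complex MiDAC, 1 of 3 genes was tested, the scaffold DNTTIP1, at 124 ± 14.3 and 131 ± 3.33 CPM, and TRERF1, at 2.72 ± 2.19 and 3.55 ± 4.63 CPM, was too low to test. Of the NCoR and SMRT list of 5, 3 were tested, with a median of -0.42.

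Of the class IIa partners, which are MEF2 factors, 14-3-3 proteins and the kinases that drive nuclear export, 11 of 17 were tested, with a median log2 fold change of -0.07. Among the 8 other deacetylases, 4 sirtuins were tested, with a median of -0.35 and 0 called. SIRT2, a tubulin deacetylase like HDAC6, was at 37.5 ± 7.55 and 46.1 ± 5.70 CPM, and the nucleolar enzyme SIRT7 at 13.2 ± 4.03 and 17.3 ± 5.38 CPM (SD, n = 4). HDAC11, the single class IV enzyme, had at most 3 counts in a library.

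**Figure D5:**
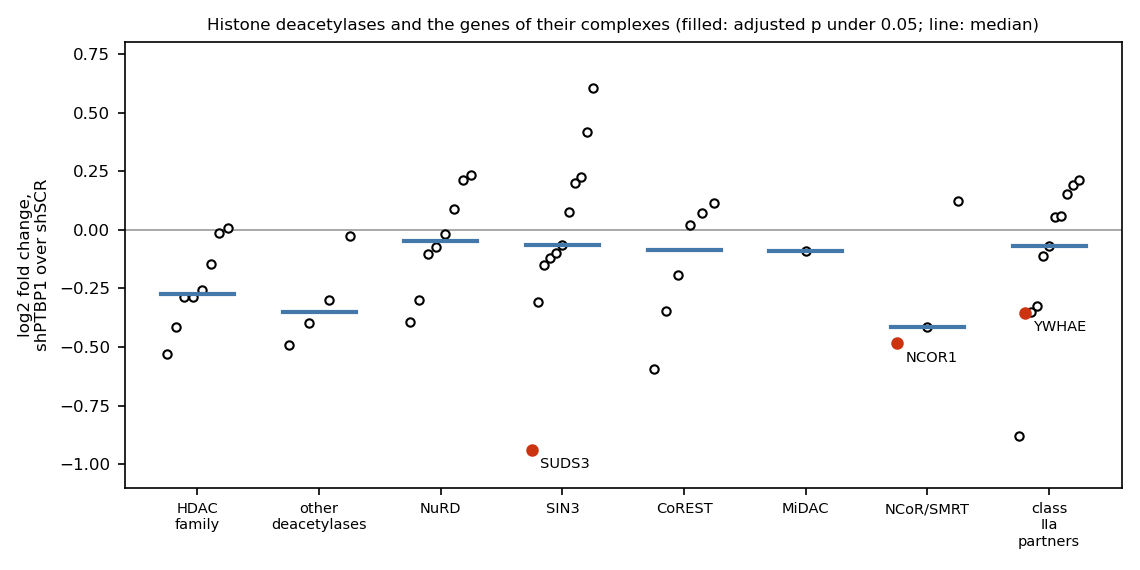
Log2 fold change of shPTBP1 over shSCR for each tested gene of the family and of the 7 lists; filled red points have an adjusted p under 0.05 (edgeR) and the blue line is the median of the list. NCOR1, SUDS3 and YWHAE are filled, at -0.48, -0.94 and -0.35, and no family gene is.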

How the data were processed

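RNA from MOLM-13 cells (4 shPTBP1 and 4 shSCR libraries) was sequenced by the authors as nanopore cDNA, aligned to hg38 with minimap2, filtered on mapping quality, and counted per transcript with StringTie; versions, annotation and strand setting are not given in the sources used here. The authors deposited transcript counts as whole numbers without normalization. A table deposited by the authors as TPM holds CPM, with no correction for length, and was not tested. Groups came from the labels.

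Transcripts were assigned to genes by identifier in GENCODE 44 on GRCh38, which held 252562 of 254070; the other 1508, with 0.0876% to 0.115% of each library, were left out. Depth was 1528449 to 1613342 counts per library. Gene and transcript counts were analysed in edgeR 4.0.16 by quasi-likelihood F tests (filterByExpr with minimum count 10, TMM, group as the only term), and usage with diffSpliceDGE of edgeR, with a call needing a change of share of at least 10 points. Calls were made at a Benjamini-Hochberg adjusted p under 0.05 over all features tested. The 95% intervals use the SE implied by the F statistic. Single values were compared by exact two-sided permutation tests. Per-kilobase levels divide by the mean transcript length weighted by counts. The scripts were tested on simulated data.

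The members and lists were chosen with earlier results of these data known. Named were all members, PTBP1, the called genes of each list (at most 6, by p) or otherwise its 2 most abundant, and for each member the 3 transcripts with the highest mean share; 1 gene that this rule names is not reported here, and other genes and transcripts named (CD34, SPI1, CD68, CD4, HDAC11, the overlapping genes and further transcripts of HDAC2, HDAC6, HDAC8 and HDAC9) were chosen after their values were seen. Alternatives were DESeq2 1.42.0, limma 3.58.1, other size factors and filters, a replicate block, and leaving out each library. Libraries with the same replicate number did not deviate together from their group means (correlation of deviations between -0.0328 and 0.00889). The labels do not say whether such libraries were made together. B cell, erythroid, megakaryocyte and stromal marker lists of 5, 6, 4 and 6 genes summed to at most 5.93, 0.659, 2.51 and 34.9 CPM in a library.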

Additional observations from a re-analysis of the deposited data

Results flagged for a closer look

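In 4 of the 39 groups of 4 libraries examined, 1 library lay far from the other 3 by Dixon's criterion. Its rate of about 1 group in 20 by chance holds for normally distributed values. Shares that rest on a few counts are not of that kind, so the number of flags cannot be set against that rate. HDAC9 in shSCR replicate 4 had 10.1 normalized CPM, against 6.06 to 6.59 in the other shSCR libraries. The share of HDAC5 counts with the MANE coding sequence was 95.5% in shPTBP1 replicate 2 and 100% in the other shPTBP1 libraries, a difference of 1 count of HDAC5-201. For HDAC6 that share was 87.9% in shPTBP1 replicate 1, against 84.6% to 85.0% in the others, and for HDAC7 it was 75.0% in shPTBP1 replicate 2 (6 of 8 counts), against 33.3% to 40%. The cause of these differences was not tested.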

How the results depend on the processing

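Over the 213 values of the family's genes and transcripts recomputed under the alternatives, 192 kept their direction and side of the threshold, 20 changed sign and 1 crossed the threshold. The crossing value was HDAC8-207 without shPTBP1 replicate 1. HDAC2 at the gene level turned to a log2 fold change of -0.030 with limma on log2(CPM + 0.5) and with log2(CPM + 1), and to -0.011 among genes with a mean of at least 50 counts. With each library left out, the log2 fold change was between -0.061 and 0.027 for HDAC1, between -0.034 and 0.037 for HDAC2 and between -0.55 and 0.075 for HDAC9, between -0.68 and -0.24 for HDAC6 and between -0.69 and -0.23 for HDAC10, and at the transcript level between -0.071 and 0.017 for HDAC1-201, between -0.060 and 0.024 for HDAC2-201 and between -0.011 and 0.13 for HDAC2-205. The share difference was then between -1.65 and 0.67 points for HDAC2-201 and between -0.32 and 1.99 points for HDAC2-205. The difference in exon inclusion was then between -1.84 and 0.51 points for HDAC2, -11.9 and 3.01 for HDAC7, -1.0 and 3.29 for HDAC8, and -10.3 and 5.55 for HDAC9; these fits on inclusion were chosen after seeing the data.

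With each library left out, between 107 and 190 genes were called lower and between 77 and 168 higher, between 174 and 302 transcripts lower and between 163 and 265 higher, and between 16 and 26 isoforms lower in usage and between 26 and 32 higher. Between 0 and 1 transcripts of the family and between 0 and 2 of the listed partner genes were called. Without a filter on low counts, 530 transcripts were called lower and 457 higher, and with limma's diffSplice 77 and 78 isoforms. A fit with replicate block gave 186 genes lower and 137 higher, and NCOR1 was then not called (edgeR adjusted p = 0.0614). Libraries with the same number did not deviate together over the genes tested. This does not tell whether they were made together, which the labels do not say. The depth limits HDAC4, HDAC7, HDAC9 and HDAC10 most, with at most 18 counts in a library.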
